A study of Mus musculus with 30 samples.

Results

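The comparison described here is the response of the DBA/2 (D2) mouse liver to dietary iron loading. It set 5 D2 mice on an iron-enriched diet against 5 D2 mice on an iron-balanced diet, which are 10 of the 30 arrays of the series, and the arrays were chosen by their titles alone. The enriched diet held 8.3 g of iron per kg and the balanced diet 200 mg per kg. Each array measured liver RNA of 1 mouse by 1-colour hybridisation, and the labels give every mouse a code of its own. Arrays of C57BL/6 (B6) mice on the same diets, 5 enriched and 5 balanced, were used to ask whether a change in D2 differed from that in B6. The rest of the series came from mice of both strains on an iron-deficient diet, whose response is not described here. All 30 arrays entered the normalization, the filter on dim probes and the fit. They therefore shared in setting the spread behind each SE and adjusted p of the fit. The labels state no sex, age or time on the diet, and the numbers 1 to 5 only name the mice of a group.

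The liver senses body iron through a bone morphogenetic protein (BMP) relay. Bmp6, a secreted ligand made mainly by the endothelial cells of the sinusoids, acts on hepatocytes through BMP receptors and SMAD proteins. The relay drives transcription of the peptide hormone hepcidin, which blocks iron export into blood. Id1 and Atoh8 encode transcriptional regulators that respond to BMP signals, and Smad7 encodes an inhibitory SMAD that feeds back on them. A separate control acts on transcripts with iron-responsive elements, such as that of the transferrin receptor gene Tfrc, which is degraded when iron is plentiful.

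The share of probes marked well above background ran from 64.2% to 72.0% over the 10 D2 arrays. Enriched mice 4 and 5 had the dimmest arrays, with median processed signals of 67.3 and 65.7, and the other 8 arrays lay between 88.4 and 111. All 10 hepatocyte markers were measured, and their summed signal ran from 1523620 to 1564730 in enriched livers and from 1568510 to 1704010 in balanced livers. Arrays were scanned on 3 days. The enriched group had 2 arrays on day 1, 1 on day 2 and 2 on day 3, and the balanced group had 1, 3 and 1 on those days. Enriched mice 1 to 5 were on slides 7, 8, 6, 3 and 1. Balanced mice 1 to 5 were on slides 5, 6, 4, 2 and 9, so only slide 6 held both groups. All signals below are log2 values after quantile normalization, and all differences are enriched minus balanced in log2 units with the standard error (SE) of the fit.

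Iron loading changed 19 of 21071 tested genes in D2 livers at an adjusted p under 0.05, which is 0.0902%. Of these, 15 rose (0.0712%) and 4 fell (0.019%), and 10 changed at least 2-fold. The same test called 5.83% of genes in B6 livers. The rises included Bmp6, Id1 and Atoh8 of the BMP relay, the detoxifying reductase Akr1b8 and the lipid-handling Apoa5 and Ces1e, and the falls were Tfrc, Usf2, Prss12 and Chchd6. Over all tested genes the median change was -0.01, and 1158 genes (5.5%) had an unadjusted p under 0.05. The count was sensitive to single mice. It was 3 without enriched mouse 3 or without balanced mouse 2, 8 without enriched mouse 2, 10 without balanced mouse 4, 11 without enriched mouse 1, enriched mouse 4 or balanced mouse 3, and 12 without balanced mouse 1. With slide as a block 9 of the 19 passed, and Id1, Atoh8, Usf2, Gucy2c, Prss12, Chchd6, Ces1e, Apoa5, NAP057251-1 and 1190002F15Rik did not. Only slide 6 held arrays of both D2 groups, so this fit compared most of these mice through arrays of the other groups. With the normexp background 13 of the 19 passed, and Klrb1f, Cep55, Spata32, Chchd6, Apoa5 and 1190002F15Rik did not. With the 10 D2 arrays fitted alone limma called 0 genes, with 1146 at an unadjusted p under 0.05, and without normalization between arrays it called 133, of which 6.77% were higher, against 78.9% here.

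The ligand of the relay had the smallest p-value of all genes. Bmp6 signals in enriched mice 1 to 5 were 9.76, 9.96, 9.92, 9.75 and 9.56, against 9.17, 8.91, 8.82, 9.11 and 8.96 in balanced mice 1 to 5. Every enriched liver lay above every balanced one. Bmp6 rose 1.74-fold (log2 difference 0.80, SE 0.0833, adjusted p = 1.04e-05). A second Bmp6 probe gave 0.92 (adjusted p = 0.00102), and the call held without any one of the 10 mice. The difference was 0.55, 0.95 and 0.91 within scan days 1, 2 and 3.

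Of the 3 downstream genes that the study's title names with Bmp6, Id1 and Atoh8 rose and Smad7 missed the threshold. Since the study chose these genes on these samples, their direction is not independent evidence. Id1 read 11.84, 10.96, 11.83, 11.84 and 10.42 in enriched livers, against 9.93, 9.25, 8.61, 9.95 and 10.11 in balanced livers. The groups did not overlap, with enriched mice 2 and 5 lowest among the enriched and balanced mouse 3 lowest of all. Id1 rose 3.50-fold (1.81, SE 0.31, adjusted p = 0.0127), and a second Id1 probe gave 1.86 (adjusted p = 0.012).

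Atoh8 showed the same arrangement of mice. Its signals were 10.31, 9.61, 10.55, 10.27 and 9.49 in enriched livers, against 8.94, 9.22, 8.55, 9.06 and 9.06 in balanced livers. Mice 2 and 5 were again the lowest of the enriched group and mouse 3 the lowest of the balanced group. Atoh8 rose 2.12-fold (1.08, SE 0.2, adjusted p = 0.0216). With slide as a block neither Id1 (1.93, adjusted p = 0.157) nor Atoh8 (1.09, adjusted p = 0.124) passed, and when single mice were left out in turn Id1 passed in 8 and Atoh8 in 3 of the 10 fits.

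Smad7 read 10.89, 10.04, 11.15, 11.03 and 10.05 in enriched livers, against 9.70, 9.65, 9.24, 9.98 and 10.13 in balanced livers. Here the groups overlapped, because enriched mice 2 and 5 lay below balanced mouse 5. The difference was 0.89 (SE 0.217, adjusted p = 0.185), and an exact two-sided permutation test of the 5 against 5 values gave p = 0.0317, where 252 arrangements allow no p below 0.00794. That test was run on 7 genes, all chosen with earlier results of these data known. Within scan days 1, 2 and 3 the differences were 1.18, 2.57 and 1.29 for Id1, 0.83, 1.65 and 0.90 for Atoh8, and 0.56, 1.62 and 0.33 for Smad7.

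**Figure D1:**
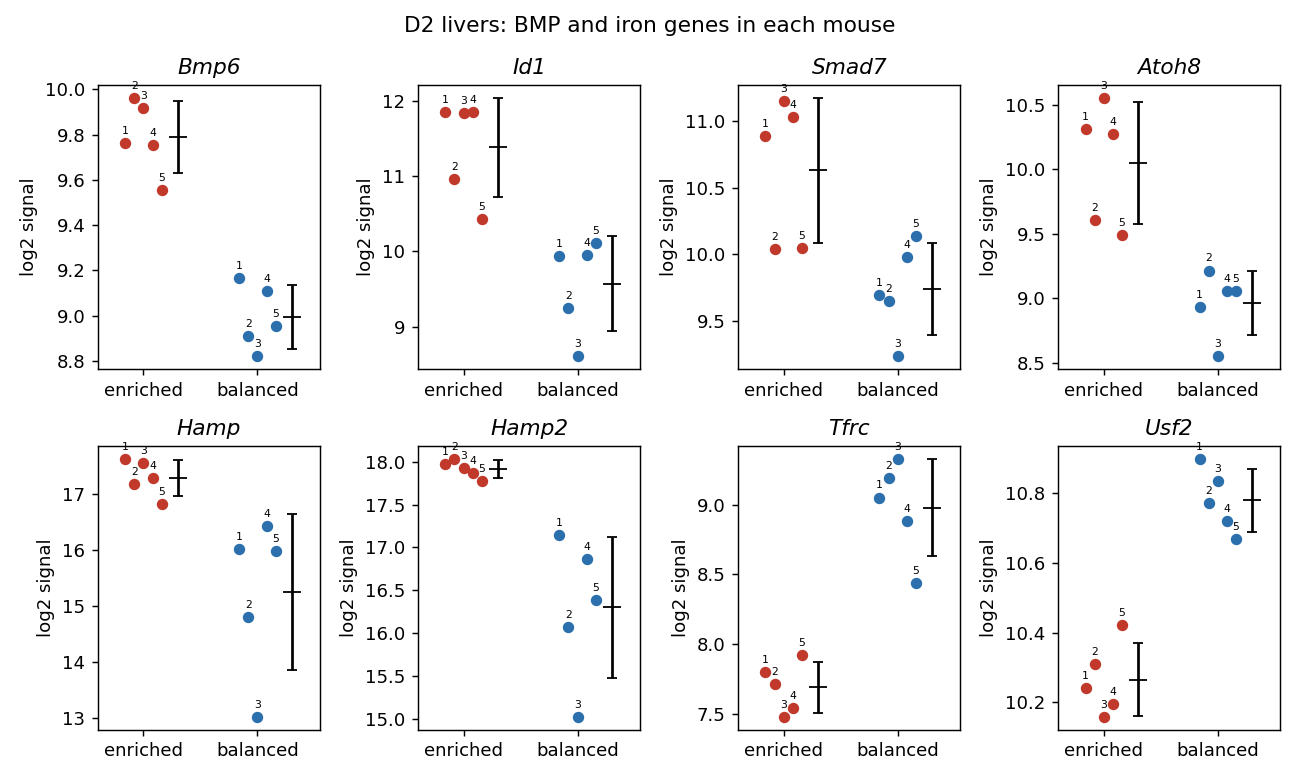
Log2 signal (vertical axes, each with its own range) of 8 genes in 5 enriched (red, left) and 5 balanced (blue, right) D2 livers, with numbers naming the mice and black bars giving the mean ± SD. The groups are apart in every panel but Smad7, where enriched mice 2 and 5 fall among the balanced values, and balanced mouse 3 lies lowest for Hamp at 13.02.

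Both hepcidin genes read higher in every enriched liver, but neither passed the test across all genes. Hamp encodes hepcidin and Hamp2 its paralog, and how far their probes read each other's transcript was not measured. Hamp signals were 17.63, 17.17, 17.55, 17.27 and 16.82 in enriched livers, against 16.02, 14.80, 13.02, 16.42 and 15.97 in balanced livers. The enriched livers were tightly grouped, and the wide spread of the balanced ones came mostly from mice 2 and 3. The mean was 17.29 ± 0.32 in enriched and 15.25 ± 1.39 in balanced livers (SD, n = 5 each), a difference of 2.04 (SE 0.855, adjusted p = 0.795).

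Hamp2 read 17.97, 18.04, 17.92, 17.87 and 17.77 in enriched livers, against 17.15, 16.07, 15.02, 16.87 and 16.39 in balanced livers. Balanced mouse 3 was again the lowest, and the groups were apart. The difference was 1.62 (SE 0.432, adjusted p = 0.283). By the exact permutation test Hamp, Hamp2, Bmp6, Id1, Atoh8 and Tfrc each gave p = 0.00794, the smallest that this design allows. Full groups that do not overlap always give that value, so it adds nothing to the lack of overlap itself. Among all 21071 tested genes, 300 (1.42%) had groups that did not overlap. The value is therefore no further evidence for a rise of Hamp or Hamp2. Differences within scan days 1, 2 and 3 were 0.63, 2.93 and 1.43 for Hamp and 0.95, 1.85 and 1.62 for Hamp2.

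The 250 bases upstream of the annotated start are shown for both hepcidin genes because they differ in a motif known from BMP-responsive genes, and for Bmp6 and Atoh8, which rose together. The sequences come from RefSeq (GRCm38.p6) and run 5′ to 3′ on the strand of the gene. Capitals mark GGCGCC, a GC-rich element bound by SMAD proteins, and CACGTG, the E-box bound by upstream stimulatory factors. Both motifs read the same on either strand.
Hamp, chr7:30944030-30944279, minus strand: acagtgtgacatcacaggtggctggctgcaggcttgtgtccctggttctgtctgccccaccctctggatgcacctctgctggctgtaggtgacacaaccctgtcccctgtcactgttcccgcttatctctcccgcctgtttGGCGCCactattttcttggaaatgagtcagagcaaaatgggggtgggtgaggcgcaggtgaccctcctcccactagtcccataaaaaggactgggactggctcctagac
Hamp2, chr7:30924182-30924431, minus strand: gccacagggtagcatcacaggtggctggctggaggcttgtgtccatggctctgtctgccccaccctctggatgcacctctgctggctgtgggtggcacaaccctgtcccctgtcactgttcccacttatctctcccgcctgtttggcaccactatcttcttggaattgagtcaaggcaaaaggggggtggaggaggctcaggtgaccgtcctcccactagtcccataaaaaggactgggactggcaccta
Bmp6, chr13:38345466-38345715, plus strand: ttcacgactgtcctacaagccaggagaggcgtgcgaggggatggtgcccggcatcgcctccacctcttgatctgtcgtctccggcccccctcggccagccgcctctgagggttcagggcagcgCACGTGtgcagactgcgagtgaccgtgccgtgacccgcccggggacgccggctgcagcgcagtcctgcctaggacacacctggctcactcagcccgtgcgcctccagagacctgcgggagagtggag
Atoh8, chr6:72235578-72235827, minus strand: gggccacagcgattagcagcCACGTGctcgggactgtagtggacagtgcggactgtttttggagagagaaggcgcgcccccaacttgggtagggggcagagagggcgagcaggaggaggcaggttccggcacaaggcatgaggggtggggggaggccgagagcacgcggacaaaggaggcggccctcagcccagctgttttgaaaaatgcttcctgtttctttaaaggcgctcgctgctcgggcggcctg

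In Hamp the GGCGCC motif began 109 bases before the start. The most similar stretch of Hamp2 matched it at 24 of 26 bases and carried G4A within the motif, with positions counted from 1 at the motif's 5′ end and the Hamp base given first. CACGTG began 127 bases before the start of Bmp6 and 230 before that of Atoh8. Over 32536 distinct windows of this length in the table, 9.65% held GGCGCC and 6.04% held CACGTG. Of the 19 genes that passed the test, 14 had an entry, and 4 of the 14 held GGCGCC (Tfrc, Spata32, Chchd6 and Apoa5) and 3 held CACGTG (Bmp6, Atoh8 and Apoa5). These matches describe only the letters of the windows, and binding was not tested.

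No further gene of the pathway passed. Of 41 tested genes of BMP and SMAD signalling beyond the 4 above, 0 rose and 0 fell by limma, with 5 higher and 1 lower at an unadjusted p under 0.05 (2.26% higher and 3.23% lower over all genes). The list's median change was 0.05. The targets Id3 (0.90, adjusted p = 0.571) and Id2 (0.60, adjusted p = 0.726), the inhibitory Smad6 (0.46, adjusted p = 0.639) and the receptor-regulated Smad9 (0.45, adjusted p = 0.758) had the smallest p-values of the list.

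Smad6 was the only one of these 4 whose groups did not overlap. It ran from 9.51 to 9.86 in enriched livers and from 8.98 to 9.45 in balanced livers. Id3 was measured in 4 of the 5 balanced mice.

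Of 30 tested genes of iron transport and storage 1 fell, Tfrc, and 0 rose, with a list median of 0.03. Tfrc read 7.80, 7.72, 7.48, 7.54 and 7.93 in enriched livers, against 9.05, 9.19, 9.33, 8.89 and 8.44 in balanced livers. All enriched livers lay below all balanced ones, with balanced mouse 5 nearest to them. Tfrc fell by 1.29 (SE 0.181, adjusted p = 0.0015), to 0.41 of the balanced level, and the call held without any one mouse. Within scan days 1, 2 and 3 the differences were -1.15, -1.71 and -0.68.

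Other members with the smallest p-values in that list differed without passing. The probe that the array names Ftl2, for a ferritin light chain, ran from 17.36 to 17.67 in enriched livers. It ran from 16.92 to 17.62 in balanced livers (0.38, adjusted p = 0.283). That name was not matched in RefSeq, and how far the probe reads other ferritin light chain transcripts was not measured. Within scan day 3 the Ftl2 difference had the other sign. The ferroxidase ceruloplasmin (Cp, 0.45, adjusted p = 0.283) and the ferrous iron importer Slc11a2 (-0.34, adjusted p = 0.291) had groups that did not overlap, and the other Slc11a2 probes gave -0.28 and -0.03.

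Of 12 tested heme synthesis genes 0 passed, and the list's median was -0.08. Its rate-limiting liver enzyme Alas1 differed by -0.41 (adjusted p = 0.974). The erythroid isoform Alas2 read 13.53, 13.66, 13.69, 13.60 and 13.41 in enriched livers, against 13.14, 13.31, 13.26, 13.40 and 13.24 in balanced livers. Those groups stood apart by a narrow margin, and the difference of 0.31 did not pass (SE 0.171, adjusted p = 0.935).

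Usf2 encodes an upstream stimulatory factor, and in RefSeq's gene order it is the neighbour of Hamp. Its signals were 10.24, 10.31, 10.16, 10.19 and 10.42 in enriched livers, against 10.90, 10.77, 10.83, 10.72 and 10.67 in balanced livers. The groups were apart, and each was tight. Usf2 fell by 0.51 (SE 0.0874, adjusted p = 0.0127), but its second probe gave -0.12 (adjusted p = 0.9999), so the fall rests on 1 probe. With slide as a block the adjusted p was 0.0561. Within scan days 1, 2 and 3 the differences were -0.41, -0.68 and -0.39.

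Genes of the oxidative stress response were represented by Akr1b8, an aldo-keto reductase and target of the regulator NRF2. It read 10.94, 11.35, 11.19, 11.07 and 10.61 in enriched livers, against 10.08, 10.26, 10.10, 10.13 and 10.12 in balanced livers. Enriched mouse 5 was the lowest of its group and still above every balanced liver. Akr1b8 rose 1.86-fold (0.89, SE 0.133, adjusted p = 0.00273), and the call held without any one mouse.

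Among 26 tested NRF2 targets Akr1b8 was the 1 that rose and 0 fell, with 5 higher (19.2%, against 2.26% of all genes) and 0 lower at an unadjusted p under 0.05 and a median of 0.16. The glutathione-synthesis gene Gclc (0.58, adjusted p = 0.491), the conjugate exporter Abcc2 (0.24, adjusted p = 0.77) and the epoxide hydrolase Ephx1 (0.31, adjusted p = 0.804) followed. Without normalization between arrays, where the median of all genes moved to -0.16, the list's median was -0.01. Of 25 genes of antioxidant and lipid peroxide defence 0 passed (median -0.02). Among metallothioneins and other metal or zinc handling genes 0 of 10 passed (median 0.12), with 0.96 for the metallothionein Mt1 (adjusted p = 0.789) and 0.60 for Mt2 (adjusted p = 0.996).

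**Figure D2:**
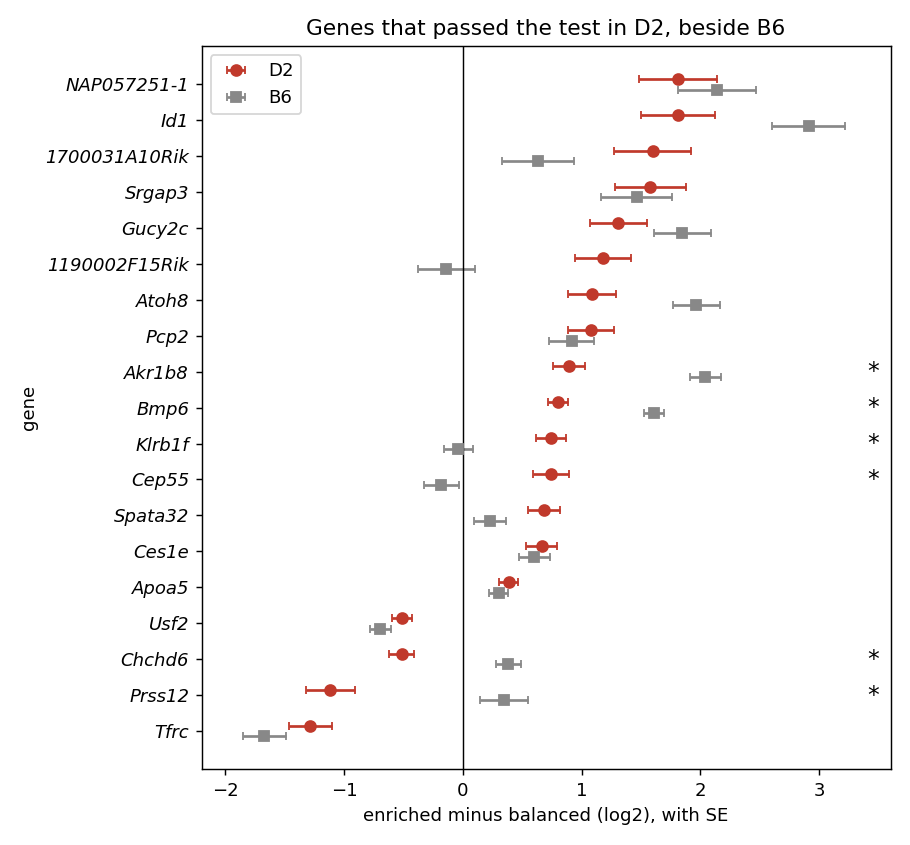
Enriched minus balanced difference (horizontal axis, log2, with SE) of the 19 genes that passed in D2 livers (red circles), with the B6 difference of the same gene (grey squares). Stars mark the 6 genes whose D2 and B6 differences differed at an adjusted p under 0.05.

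Several of the other rises were large. The intestinal guanylate cyclase receptor gene Gucy2c ran from 9.84 to 10.9968 in enriched and from 8.49 to 9.72 in balanced livers, and rose 2.48-fold (1.31, adjusted p = 0.0216, and 0.221 with slide as a block). Pcp2, known from Purkinje cells, ran from 12.86 to 13.49 and from 11.77 to 12.41 in the same order (1.08, adjusted p = 0.0197), but its second probe gave -0.09 (adjusted p = 0.9999). Srgap3 ran from 7.27 to 8.10 and from 5.70 to 6.98 (1.58, adjusted p = 0.026), with 0.13 at its second probe (adjusted p = 0.9999). The rises of Pcp2 and Srgap3 therefore rest on 1 probe each. When single mice were left out in turn, Gucy2c passed in 3, Pcp2 in 5 and Srgap3 in 2 of the 10 fits.

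Carboxylesterase Ces1e rose by 0.66 (adjusted p = 0.0452) and the testis-associated Spata32 by 0.68 (adjusted p = 0.0413). When single mice were left out in turn, Ces1e passed in 1 and Spata32 in 2 of the 10 fits. Further rises carried only clone or probe names: NAP057251-1 by 1.81, 1190002F15Rik by 1.18 and 1700031A10Rik by 1.60, the last measured in 4 of 5 balanced mice. With slide as a block Ces1e (adjusted p = 0.116), NAP057251-1 (adjusted p = 0.433) and 1190002F15Rik (adjusted p = 0.157) did not pass. With the normexp background Spata32 gave 0.64 (adjusted p = 0.0569) and 1190002F15Rik gave 0.41 (adjusted p = 0.0816). Prss12, a serine protease known from neurons, read 6.10, 5.64, 5.77, 5.98 and 5.23 in enriched livers, against 6.48, 7.47, 6.45, 7.07 and 6.83 in balanced livers. Its groups were apart, and it fell by 1.12 (SE 0.203, adjusted p = 0.0211). The difference was -1.09 with slide as a block (adjusted p = 0.0765) and -0.61 with the normexp background (adjusted p = 0.0103).

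Among apolipoproteins 1 of 23 tested genes rose and 0 fell, with a median of 0.02. The triglyceride regulator Apoa5 read 17.84, 17.73, 18.02, 18.02 and 17.89 in enriched livers, against 17.67, 17.49, 17.45, 17.30 and 17.65 in balanced livers. The groups did not overlap, although enriched mouse 2 and balanced mouse 1 nearly met. Apoa5 rose 1.31-fold (0.39, SE 0.0787, adjusted p = 0.0479), though not with slide (0.30, adjusted p = 0.602) or scan day (0.38, adjusted p = 0.0586) as a block, and its second probe rose too (0.47, adjusted p = 0.013).

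Apoa4 (0.86, adjusted p = 0.724), Apoc3 (0.18, adjusted p = 0.322) and Mttp, which loads lipid onto lipoproteins (0.30, adjusted p = 0.563), had the next smallest p-values of that list. Other lists of lipid and fuel metabolism held no gene that passed: 33 genes of fatty acid oxidation (median 0.04), 22 of fatty acid synthesis (-0.03), 19 of lipid droplets (0.04), 26 of cholesterol synthesis (-0.17, but -0.41 without enriched mouse 5 and -0.09 without enriched mouse 4), 20 of glucose output (-0.0027) and 21 of bile acid synthesis and transport (-0.0021).

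Cell cycle genes read higher in enriched livers as a group, though 1 of 30 tested members passed the test. Their median change was 0.46, against -0.01 over all genes, and 27 of the 30 were higher. At an unadjusted p under 0.05 there were 18 higher and 0 lower members, against 2.26% higher and 3.23% lower over all genes, and 7 had groups that did not overlap (0.731% of all genes in that direction). Some were dim: 24 of the 30 were above background on all 10 arrays, and 14 of the 18 were among them. The median over the list stood 0.24, 0.66, 0.57, 0.47 and 0.44 above the balanced mean in enriched mice 1 to 5, and between -0.14 and 0.17 in the balanced mice.

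The member that passed, Cep55, acts in the last step of cell division. It read 4.32, 5.02, 4.78, 4.81 and 4.59 in enriched livers, against 4.27, 3.80, 4.03, 3.80 and 3.92 in balanced livers. It was above background in 4 of 5 enriched mice and 0 of 5 balanced mice, and it passed with the floor used here (0.74, adjusted p = 0.0479). The value depends on how dim signals are treated: it was 0.21 with the normexp background (adjusted p = 0.43), 0.19 without normalization between arrays (adjusted p = 0.744) and -0.997 with a floor of 1. Its second probe gave 0.05 (adjusted p = 0.9999).

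Cyclin D1 (Ccnd1), which starts the cycle, read 10.33, 10.63, 11.12, 11.24 and 10.86 in enriched livers, against 8.98, 9.45, 9.62, 9.32 and 9.83 in balanced livers. It was bright on every array and its groups were apart, but the difference of 1.40 did not pass (SE 0.323, adjusted p = 0.14). The mitotic checkpoint kinase Bub1 (0.82, adjusted p = 0.121) was above background in 3 of 5 enriched and 0 of 5 balanced mice. Cdc20, an activator of the anaphase complex, differed by 0.71 (adjusted p = 0.283). Within scan days 1, 2 and 3 the list's median was 0.58, 0.59 and 0.35. It was 0.24 with the normexp background and 0.28 without normalization between arrays, where that of all genes was -0.16. Without enriched mice 4 and 5 the list's median was 0.53 with 0 members past the threshold.

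**Figure D3:**
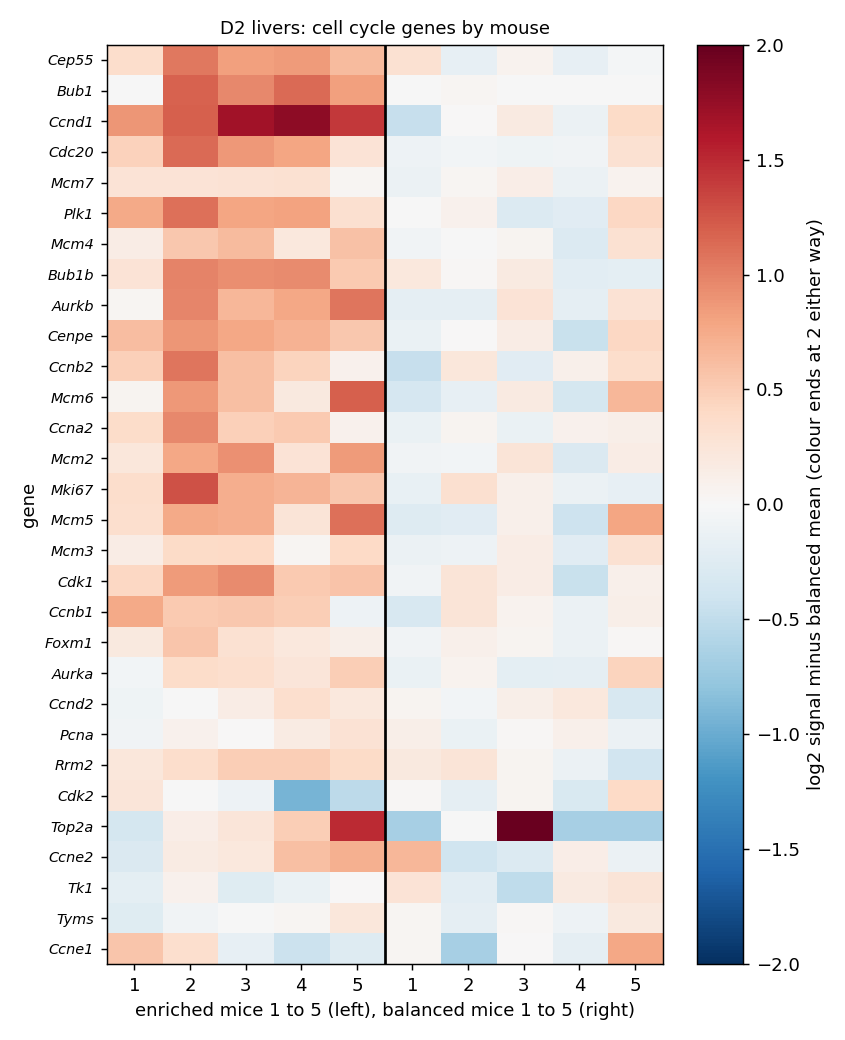
Log2 signal minus the balanced mean (colour, red above and blue below) for 30 cell cycle genes (rows, smallest p at the top) in enriched mice 1 to 5 (left of the line) and balanced mice 1 to 5 (right). Enriched mouse 1 is the palest of its group, at a list median of 0.24, and mouse 2 the strongest at 0.66.

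Mitochondrial respiratory chain genes held 1 fall among 30 tested, Chchd6, which belongs to the complex that shapes the inner membrane. It read 10.13, 10.15, 10.21, 10.17 and 10.66 in enriched livers, against 10.90, 10.63, 10.63, 10.71 and 11.04 in balanced livers. Enriched mouse 5 overlapped the balanced group, and the other 4 lay below it. Chchd6 fell by 0.52 (SE 0.104, adjusted p = 0.0479). The adjusted p was 0.077 with slide and 0.0517 with scan day as a block and 0.183 with the normexp background, and the call held in 1 of 10 fits that left out a mouse. Of the list, 8 were lower (26.7%, against 3.23% of all genes) and 0 higher at an unadjusted p under 0.05. Separated groups were seen for 3 (10%, against 0.693%). The changes were small, with a median of -0.06, and Sdhb (-0.20), Ndufs3 (-0.18) and Cox6c (-0.21) did not pass. Without normalization between arrays the list's median was -0.28, where that of all genes was -0.16.

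Interferon response genes had a median of -0.22, with 0 of 28 past the threshold and 3 lower (10.7%, against 3.23% of all genes) and 0 higher at an unadjusted p under 0.05. The median was -0.12 without balanced mouse 3 and -0.39, with 9 lower, without enriched mice 4 and 5. The RNA sensor Ifih1 (-0.32, adjusted p = 0.641) led them, with -0.09 at its second probe. The list's median was 0.12, -0.38 and -0.26 on scan days 1, 2 and 3. The unfolded protein response list had a median of -0.17 and 0 of 23 past the threshold. The chaperone Calr gave -0.43 (adjusted p = 0.466) and -0.01 at its second probe. Growth hormone dependent male-biased genes had a median of 0.03 with 0 of 21 past the threshold, and female-biased ones -0.17 with 0 of 22.

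No gene passed among 10 of heme breakdown and scavenging (median 0.04), 21 of iron-sulfur cluster assembly (-0.04), 19 hypoxia targets (-0.04), 30 of xenobiotic metabolism (-0.07), 22 of the clock (-0.03), 17 p53 targets (0.02), 26 acute phase proteins (0.07) or 27 of stellate cells and fibrosis (-0.11).

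**Figure D4:**
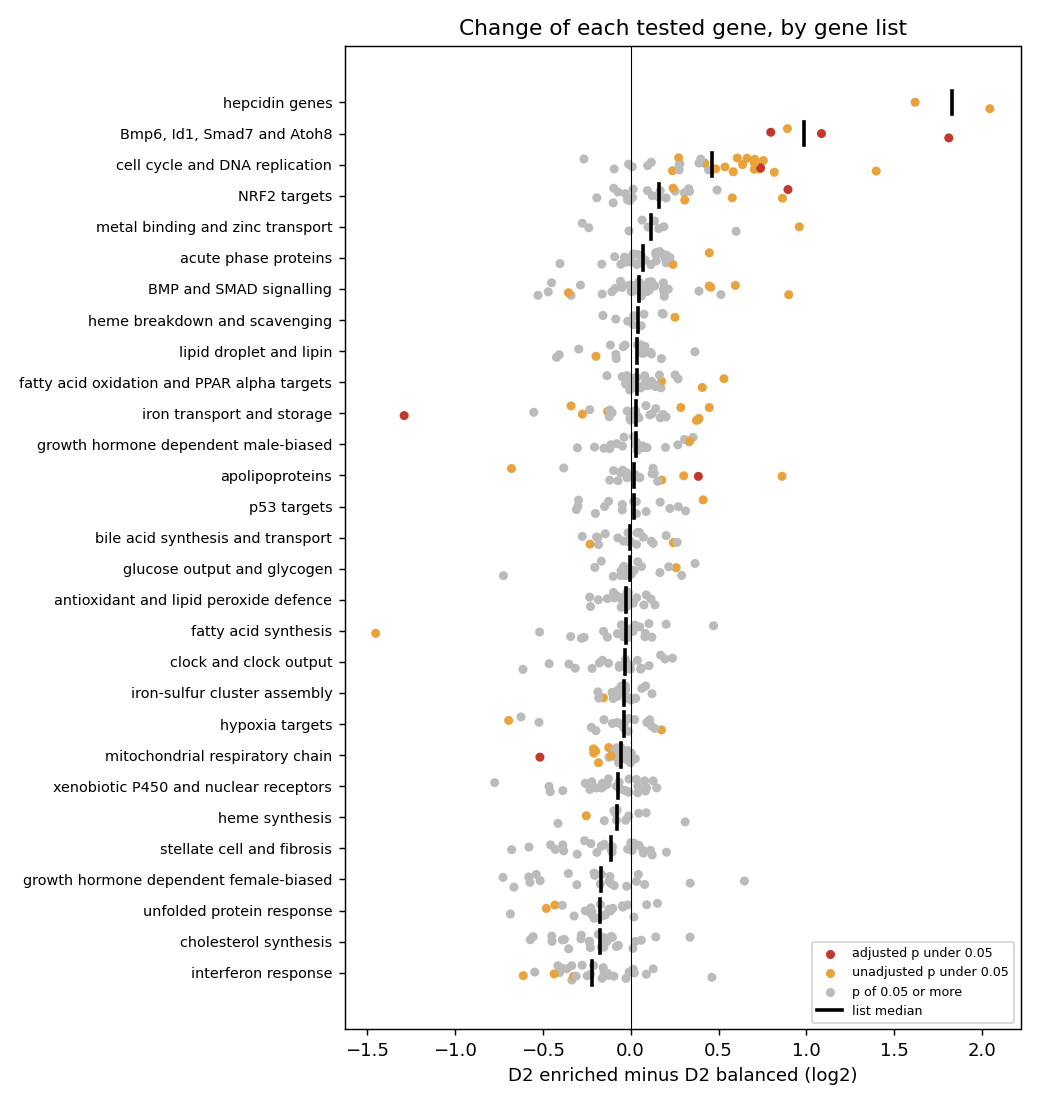
Enriched minus balanced difference (horizontal axis, log2) of each tested gene in D2 livers, by gene list (rows, ordered by median, black bars). Red points passed at an adjusted p under 0.05, orange points had an unadjusted p under 0.05, and the cell cycle list stands at a median of 0.46 where most lists lie near 0.

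Markers of other cell types were read to see what else the samples held. In whole liver, fewer cells of a type and less RNA per cell cannot be told apart. Sinusoidal endothelial markers, from the cells that make Bmp6, had 0 of 15 past the threshold and a median of 0.06, and their summed signal ran from 47014 to 52473 in enriched and from 45697 to 48621 in balanced livers. Clec4g (0.21, adjusted p = 0.587) had groups that did not overlap, and Lyve1, a hyaluronan receptor, differed by -0.49 (adjusted p = 0.805).

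Kupffer cell and macrophage markers had 0 of 15 past the threshold and a median of 0.10. Their summed signal was higher in every enriched liver, from 66963 to 77385, against 56029 to 63654 in balanced livers. Without normalization between arrays the list's median was -0.04, where that of all genes was -0.16. The scavenger receptor Marco (0.71, adjusted p = 0.813, but 0.41 without enriched mouse 1) and the growth factor receptor Csf1r (0.25, adjusted p = 0.923) were among them.

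Of 12 tested T and NK cell markers 1 rose, Klrb1f, an NK cell receptor gene. It read 4.49, 4.62, 4.83, 4.93 and 4.80 in enriched livers, against 4.19641, 3.80, 3.90, 4.27 and 3.80 in balanced livers. It was above background in 5 of 5 enriched and 0 of 5 balanced mice. With the floor used here the difference was 0.74 (adjusted p = 0.0127). Against the background level of the balanced arrays the rise was 1.43-fold, a value that was not tested. With the normexp background, which sets dim signals differently, the difference was 0.22 (adjusted p = 0.402). The summed signal of the list overlapped, from 1083 to 2684 in enriched and from 1312 to 5449 in balanced livers, with the T cell gene Cd3e at 12.20 in balanced mouse 5.

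B cell, neutrophil, erythroid, cholangiocyte, pancreatic acinar and adipocyte or muscle markers held 0 genes past the threshold, with medians of 0.06, -0.15, 0.03, -0.03, -0.37 and -0.29.

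Of the 10 largest differences below 0 between separated groups, 4 belonged to markers of mesothelium, the cell layer that covers the liver: Igfbp6, Upk3b, Rspo1 and Efemp1. A list of 23 mesothelial markers was written after these values were seen, so it is described and not tested. Of 21 measured, 19 were lower and 0 passed the threshold, the median was -0.66, and 16 were above background on all 10 arrays. Their summed signal ran from 3085 to 4990 in enriched livers and from 5545 to 9127 in balanced livers, so those ranges did not meet. The defining markers Msln and Upk3b were above background in all 10 mice, and Wt1 in 4 of 5 enriched and 5 of 5 balanced mice.

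Igfbp6, a binding protein of insulin-like growth factors, read 7.29, 7.06, 7.15, 7.64 and 6.01 in enriched livers, against 7.74, 9.03, 8.10, 9.20 and 8.06 in balanced livers. Enriched mouse 5 was the lowest and balanced mice 2 and 4 the highest. The difference was -1.39 (SE 0.289, adjusted p = 0.0548), and it was -2.37, -1.13 and -0.88 within scan days 1, 2 and 3. Rspo1, an activator of WNT signals (-1.15, adjusted p = 0.156), the matrix protein gene Efemp1 (-0.87, adjusted p = 0.168) and the uroplakin Upk3b (-1.33, adjusted p = 0.185) were likewise lowest in enriched mouse 5 and highest in balanced mice 2 and 4.

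Over the list, the median difference from the balanced mean was -0.52, -0.55, -0.79, -0.33 and -0.96 in enriched mice 1 to 5. It was 0.42 and 0.38 in balanced mice 2 and 4 and between -0.37 and -0.21 in the other 3 balanced mice. The list's median was -0.33 with the normexp background, and -1.16, -0.72 and -0.27 within scan days 1, 2 and 3. The part of these markers in other differences below 0 was not tested.

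**Figure D5:**
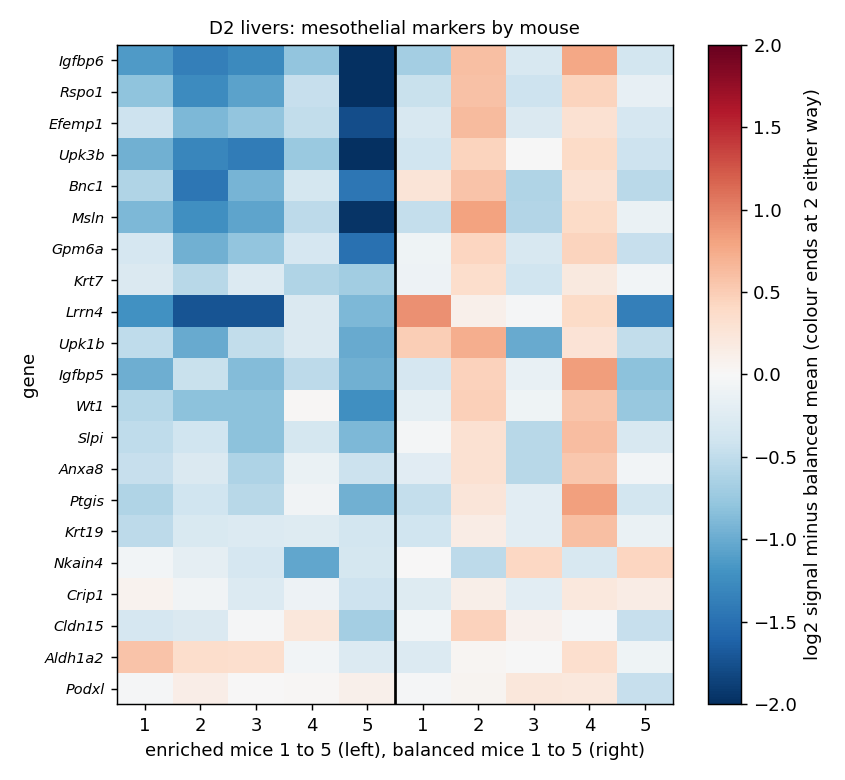
Log2 signal minus the balanced mean (colour, red above and blue below) for 21 mesothelial markers (rows, smallest p at the top) in enriched mice 1 to 5 (left of the line) and balanced mice 1 to 5 (right). Balanced mice 2 and 4 are red over most rows, and enriched mouse 5 is the darkest blue.

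Further genes with separated groups and large differences did not pass. They were the chemokine Cxcl9 (0.97, adjusted p = 0.283), the ATPase Fignl1 (1.02, adjusted p = 0.288), Bst1, an ectoenzyme that acts on NAD (-0.91, adjusted p = 0.231), Mmd2 (-0.98, adjusted p = 0.411), the steroid dehydrogenase Hsd17b6 (-0.95, adjusted p = 0.704) and Zfp286 (-0.88, adjusted p = 0.366). Zfp286 was above background in 1 of 5 enriched and 5 of 5 balanced mice. Separated groups were seen for 300 genes (1.42%), 154 higher and 146 lower (0.693%).

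Whether the D2 change differed from that in B6 livers was tested by the difference of the 2 diet effects, D2 minus B6. It passed for 234 genes (1.11%), among them 6 of the 19 that changed in D2. Bmp6 rose less in D2 than in B6 livers, by 0.80 and 1.61 (difference -0.81, SE 0.118, adjusted p = 0.000595), and Akr1b8 did so as well, by 0.89 and 2.04 (-1.15, adjusted p = 0.00176). The Smad7 difference of 0.89 in D2 lay below the rise of 2.55 in B6 (-1.66, adjusted p = 0.00562). Id1 (-1.10, adjusted p = 0.278), Atoh8 (-0.88, adjusted p = 0.144), Hamp2 (-1.16, adjusted p = 0.479) and Hamp (0.28, adjusted p = 0.973) gave no call for a difference between strains.

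In the other direction, Klrb1f (0.78, adjusted p = 0.0246) and Cep55 (0.92, adjusted p = 0.0299) rose in D2 livers, where B6 livers gave -0.04 and -0.18. Both were above background in 0 of 5 balanced D2 mice. Their B6 means lay between 3.82 and 4.00, near the floor of 3.80 in log2 units. These calls therefore depend on how dim signals are treated. With the normexp background the D2 differences were 0.22 for Klrb1f and 0.21 for Cep55. Chchd6 and Prss12 fell by 0.52 and 1.12 in D2, and the B6 differences were 0.38 and 0.34 (D2 minus B6 -0.90, adjusted p = 0.0016, and -1.46, adjusted p = 0.00902). Of the 21 mesothelial markers 5 passed for this difference, where 1.11% of all genes did. Among them were Igfbp6 (-1.66, adjusted p = 0.0416), Rspo1 (-1.54, adjusted p = 0.0431) and Efemp1 (-1.21, adjusted p = 0.0381). That list was written after the D2 values were seen, and the D2 change is part of this difference. The choice of the list therefore favours such calls, and the count is no independent evidence.

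The smallest p-values of this difference belonged mostly to genes with little change in D2 livers. The signs of the D2 values of Srd5a1, Abcc4, Chpf and Mcm10 turned under other settings. The differentiation inhibitor Id4 differed by 0.19 in D2 and 2.49 in B6 (adjusted p of the difference 7.13e-05), and the exporter Abcc4 by 0.12 and 1.38 (adjusted p = 0.000595). The complement component C9 differed by 0.33 in D2 and -1.96 in B6, Alas2 by 0.31 and -1.35, the steroid reductase Srd5a1 by 0.05 and -2.07, and Chpf, which builds chondroitin chains, by -0.08 and 1.09 (adjusted p = 0.000595 for each). Mcm10, a replication factor, differed by -0.09 and -1.92 (adjusted p = 7.13e-05).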

How the data were processed

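Liver RNA of 10 D2 mice was compared within a series of 30 arrays. The deposited files hold a processed intensity for each spot, made with Feature Extraction 9.1.3.1 per the file headers (9.5.1 per the labels), with background subtracted and arrays not yet normalized to each other. Here control and outlier spots were dropped, spots of 1 probe averaged, signals quantile normalized, raised to a floor of 13.9 and log2 transformed. Probes well above background on at least 3 B6 and 3 D2 arrays were kept, and the brightest stood for its gene (21071 genes). Limma 3.58.1 in R 4.3.3 fitted 6 group means over all 30 arrays, with Benjamini-Hochberg adjustment over all genes at 0.05. It gave every adjusted p and was tested on simulated data. The permutation-based ANOVA of the series' design text was not run. Names came from RefSeq (GRCm38.p6) where the probe's transcript or symbol was found there. The other 11564 of 41174 probes kept the array's own name.

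Genes named were all that passed, the title and hepcidin genes and Tfrc, up to 4 members with the smallest p per list, the 10 largest differences each way between separated groups with the higher group above background on all 5 arrays, and the 8 smallest p of the strain difference. Clone and probe names were passed over in those last 2 sets. Members and lists were chosen with earlier results of these data known. The fold of Klrb1f against the background level used signals without the floor. Balanced signals were raised to at least the lowest signal marked well above background on the same array. The number of arrays limits the precision.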

Additional observations from a re-analysis of the deposited data

Results flagged for a closer look

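In 9 of 164 gene and group combinations checked, 1 mouse stood far from the other 4 of its group, and about 1 in 20 would do so by chance. Among enriched mice, Srgap3 was low in mouse 5 (7.27), Chchd6 was high in mouse 5 (10.66), and the macrophage genes Marco (13.12) and Csf1r (11.71) were high in mouse 1. Among balanced mice, Cdc20 was high (7.52), Cd3e was high (12.20) and Cp was low (14.80) in mouse 5, Akr1b8 was high in mouse 2 (10.26) and Ifih1 was high in mouse 3 (12.51).

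The D2 minus B6 difference of the diet effects passed for 19 of the 87 named genes, of which 8 were named for the smallest p of this same difference (1.11% of all genes passed). It was below 0 for Id4 (-2.30), Igfbp6 (-1.66), Smad7 (-1.66), Rspo1 (-1.54), Prss12 (-1.46), Abcc4 (-1.25), Efemp1 (-1.21), Lyve1 (-1.18), Chpf (-1.18), Akr1b8 (-1.15), Chchd6 (-0.90), Bmp6 (-0.81) and Apoc3 (-0.37). It was above 0 for C9 (2.29), Srd5a1 (2.12), Mcm10 (1.82), Alas2 (1.66), Cep55 (0.92) and Klrb1f (0.78). Cep55 and Klrb1f were above background in 0 of 5 balanced D2 mice.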

How the results depend on the processing

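No paired analysis was possible because the replicate numbers follow accession order and pair no mice. The 19 genes called in D2 became 0 by the methods' t-test after adjustment. Without adjustment that t-test gave 1297 genes at a p under 0.05. Of these, 410 also passed a limma F test of diet over both strains, used because the permutation-based ANOVA was not run. The 19 became 0 as well with the 10 D2 arrays alone (1146 at an unadjusted p under 0.05) and with scan day as a block in those arrays (2738). The count was 6 with the 20 enriched and balanced arrays, 10 within scan day 2, 880 within day 3, 133 without normalization between arrays, 12 with a floor of 1 and 62 with array weights, and it ran from 3 to 19 when single mice were left out. The 234 genes of the D2 minus B6 difference became 521 with slide as a random block, 365 with scan day as a block, 16 within day 2, 465 within day 3, 894 without normalization and 153 without the 2 dimmest enriched arrays (a setting chosen after seeing the data), and ran from 139 to 204 with single mice left out. The cause was not tested.

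Signs turned for these D2 differences, of which only that of Cep55 had passed. Within scan day 1 they were -0.061 for Abcc2, 0.11 for Ifi44, 0.046 for Oas1a, 0.18 for Bst2, -0.028 for Kdr, -0.12 for Stab1 and 0.15 for Mcm10. Within day 2 Chpf gave 0.038, and within day 3 Ftl2 gave -0.12 and Srd5a1 -0.44. Without normalization the median of all genes was -0.16. In that setting the differences were -0.027 for Apoc3, -0.0097 for Clec4g, -0.022 for Stab1, -0.018 for Slc30a1, -0.0062 for Abcc4 and -0.18 for Srd5a1. Cx3cr1 gave 0.086 with normexp and 0.20 with the filter on D2 arrays, and Cep55 gave -0.997 with a floor of 1. Srd5a1 gave -0.024 with 75th percentile scaling, -0.0051 with the mean of all probes and -0.081 without the 2 dimmest enriched arrays, and ran from -0.082 to 0.14 with single mice left out.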
